A study of Rattus norvegicus with 10 samples.

Results

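The genes described here are 46 genes of the endothelium, the blood-brain barrier and the vessel wall, chosen by symbol with earlier results of these data known. Each was represented by the probe set with the highest mean signal over 10 arrays among those annotated with that symbol alone. Of the 46, 42 had such a probe set, out of 14217 genes so represented among the 31042 probe sets that are not controls, and Cdh5, Pdgfb, Ednrb and Itm2a were not analysed here. Of the 42, 37 reached the mean signal of 24.1 that was required for a test, while Icam1, Angpt1, Angpt2, Nos3 and Tagln lay under it. Pdgfrb was the tested gene closest to that limit, with a mean of 26.1, and Icam1 the closest below it, with 20.3. The Pdgfrb mean was 29.8 in dehydrated and 22.3 in control pools, so it reached the limit only through the dehydrated pools.

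The tissue was the hypothalamic paraventricular nucleus of male Sprague Dawley rats aged 10 to 12 weeks. The treated group held 5 RNA pools from rats dehydrated for 3 days and the other group 5 pools from control rats. Each pool combined tissue of 5 animals and was hybridised to 1 Affymetrix Rat Genome 230 2.0 array. Per the design text, the pools came from separate groups of animals, and the labels name no allele or agent. The titles hold only a number, which runs in one block for dehydrated and in another for control pools, apart from control replicate 5. The labels do not say what this number marks and name no batch. Any effect of what it marks cannot be told apart from that of dehydration. The series' design text names the supraoptic nucleus, whereas its title and all 10 sample labels name the paraventricular nucleus, and the labels were followed. Of transcripts found in this nucleus, Oxt, which encodes oxytocin, had a mean signal of 4090 in control pools. Sim1, a transcription factor of the nucleus, had 62.1, while Otp and Pou3f2 were below the limit for a test. Whether these genes tell the paraventricular from the supraoptic nucleus was not tested. The endothelial markers Pecam1, Cldn5, Tek, Tie1 and Esam and the mural markers Pdgfrb, Rgs5, Acta2 and Myh11 all reached that limit, Pdgfrb only through its dehydrated pools.

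Capillary endothelial cells of the brain are sealed by tight junctions and carry transporters that admit nutrients and return drugs and metabolites to the blood. They lie on a basement membrane of laminin and type IV collagen, shared with pericytes, and larger vessels carry a layer of smooth muscle. The paraventricular nucleus is known for a capillary bed denser than that of the surrounding hypothalamus. The comparison asked which vessel transcripts differed between dehydrated and control nuclei.

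Across the 10 arrays, medians of all signals ran from 36.4 to 39.1, and the groups' sums of signals differed by less than the test could call (exact two-sided permutation p = 0.0794, n = 5 each, smallest possible p 0.0079). Control replicate 5 stood apart from the other arrays on the first principal component and had the lowest array weight, 0.385. It also had the lowest log2 ratios of 3′ to 5′ control signals, 1.05 for GAPDH and 2.16 for beta-actin. The highest of any array were 1.84 and 3.07. Between groups these ratios were not called different (exact two-sided permutation p = 0.254 and p = 0.516, n = 5 each).

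Abcg2 and Icam2 rose in dehydrated pools, and none of the 37 tested genes fell. The other 35 did not pass the limma test at an adjusted p of 0.05, with adjusted p from 0.0919 to 0.982. Over all 18629 probe sets tested, 0.580% passed, 0.397% being higher and 0.183% lower in dehydrated pools. At an unadjusted p under 0.05 there were 8 of the 37 genes, each higher in dehydrated pools, where 6.70% of all probe sets tested were higher at that p and 6.01% lower. Leaving out control replicate 5 raised this count to 12, as did weighting the arrays, and with any other array left out it was between 6 and 9. The median log2 difference of the tested genes was 0.17, and that of all probe sets tested was -0.0048. Of the 37, 27 had a positive difference, against 48.8% of all probe sets tested. These counts describe genes chosen with earlier results of the data known, and no test of the list was made. Tissue was measured in bulk, so more cells of a type and more RNA per cell cannot be told apart.

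**Figure D1:**
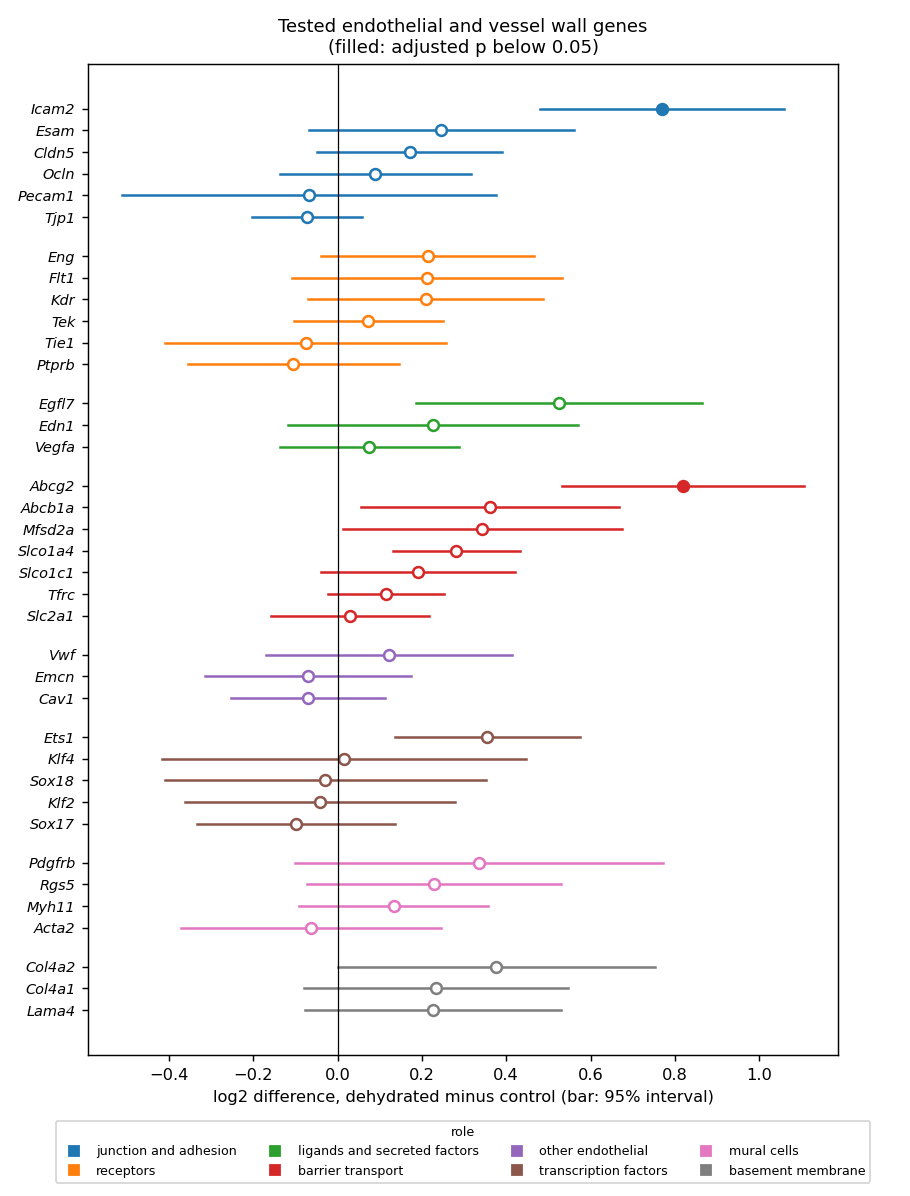
Log2 difference of dehydrated minus control pools for the 37 tested genes, grouped by role, with bars for the 95% interval of the limma fit. The filled points of Abcg2 (0.82) and Icam2 (0.77) passed the test, and the open points, from -0.10 to 0.52, did not.

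The largest difference among the 37 was that of a barrier transporter. Abcg2 encodes the breast cancer resistance protein, which pumps drugs and metabolites from the endothelium back into the blood. Its signals were 67.9, 73.3, 76.2, 71.8 and 88.6 in dehydrated replicates 1 to 5 and 33.8, 47.6, 32.2, 43.4 and 51.5 in control replicates 1 to 5. Every dehydrated pool lay above every control pool, and the groups were separated by 16.4 signal units. The log2 difference was 0.82 ± 0.14, or 1.76-fold (95% interval 0.53 to 1.11 on the log2 scale, limma adjusted p = 0.0091). The gene passed in each of the 19 alternatives in which it was tested, with adjusted p from 0.0025 to 0.0352. A limit at the 60th percentile of mean signals left it untested.

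Slco1a4 encodes an organic anion transporter of brain capillaries. Its signals were 381.2, 387.8, 373.8, 370.4 and 386 in the dehydrated and 272.7, 321.7, 321.9, 293.2 and 355.4 in the control pools. All 5 dehydrated pools lay above all 5 controls, and they spanned a narrow range, from 370.4 to 387.8. The log2 difference of 0.28 ± 0.07 did not pass (limma adjusted p = 0.0919). It passed without control replicate 5, the control with the highest signal (adjusted p = 0.0250), and with array weights (adjusted p = 0.0335), and over the 20 alternatives for this probe set the adjusted p ran from 0.0250 to 0.191. Its other tested probe set, with mean signals of 63.4 and 59.9, differed by 0.08 ± 0.16 (limma adjusted p = 0.869).

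Groups that did not overlap, with dehydrated pools above, were found for 4 of the 37 genes, Abcg2, Icam2, Slco1a4 and Ets1, and for 1.94% of all probe sets tested (3.36% in either direction). None of the 37 had dehydrated pools wholly below the controls, as 1.42% of all probe sets did. The other 33 had groups that overlapped.

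The promoter sequences of the barrier transporters Abcg2 and Slco1a4 are shown because, among the 37 tested genes, these were the transporters whose groups did not overlap. They are the 250 bases before the annotated start in RefSeq, build GRCr8, 5′ to 3′ on the gene's strand. That of Abcg2 lies on the plus strand at chr4:89075224-89075473 and that of Slco1a4 on the minus strand at chr4:176495847-176496096. Capitals mark TGACGTCA, the cyclic AMP response element, in Abcg2, and ACGTG, the core of the hypoxia response element, on either strand in Slco1a4.
Abcg2: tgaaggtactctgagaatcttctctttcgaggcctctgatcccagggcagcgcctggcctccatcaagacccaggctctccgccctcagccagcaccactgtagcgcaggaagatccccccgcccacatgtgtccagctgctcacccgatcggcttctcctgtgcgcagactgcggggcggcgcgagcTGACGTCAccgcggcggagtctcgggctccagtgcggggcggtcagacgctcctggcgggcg
Slco1a4: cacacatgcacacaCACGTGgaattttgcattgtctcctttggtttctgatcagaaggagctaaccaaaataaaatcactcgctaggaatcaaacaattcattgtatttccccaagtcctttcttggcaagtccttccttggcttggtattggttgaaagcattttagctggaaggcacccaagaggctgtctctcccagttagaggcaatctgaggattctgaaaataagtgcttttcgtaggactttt
G and C made up 67.2% of the Abcg2 window, which held 22 CG pairs, and 42.4% of the Slco1a4 window, which held 3. The cyclic AMP response element in Abcg2 lay 62 to 55 bases before the start. Both strands of 33469 windows of this length were searched, and TGACGTCA was in 1.59% of them and ACGTG in 16.6%. Of the 42 genes, 25 had a window in the table, and TGACGTCA was in those of Abcg2 and Flt1. ACGTG was in 5 of the 25, those of Cav1, Edn1, Slc2a1, Slco1a4 and Tfrc. The ETS core GGAAG was in 16 of 25 and in 63.3% of all windows, and the KLF box CACCC in 19 of 25 and in 49.2%. Both of these motifs were also in the Abcg2 and Slco1a4 windows, where they are not in capitals. The ACGTG matches in Slco1a4 overlap each other on opposite strands, and a match of letters is a description and not a site of binding.

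Among the other transporters, Abcb1a encodes P-glycoprotein, another drug efflux pump of the barrier. Its signals were 126.8, 101.6, 71.2, 89.4 and 77.6 in the dehydrated and 64, 63.7, 71.6, 64.8 and 90.6 in the control pools. Dehydrated replicate 1 was the highest, and the groups overlapped, since control replicate 5 exceeded 3 of the dehydrated pools. The log2 difference was 0.36 ± 0.14 (limma adjusted p = 0.31). A second tested probe set of Abcb1a, with mean signals of 44.0 in dehydrated and 44.3 in control pools, differed by -0.0077 ± 0.26 (limma adjusted p = 0.992). A probe set annotated with several genes, Abcb1a among them, was not used.

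Mfsd2a carries docosahexaenoic acid across the barrier. Its signals were 91.9, 78.3, 74.6, 70.0 and 56.9 in the dehydrated and 68.8, 59.5, 53.9, 38.6 and 71.1 in the control pools. Control replicate 4 was lowest and dehydrated replicate 1 highest, with overlap between the groups, and the log2 difference was 0.34 ± 0.16 (limma adjusted p = 0.377). Slco1c1, which carries thyroxine, had signals of 259.1, 269, 297.8, 253.7 and 228.3 in the dehydrated and 205.6, 239.7, 258, 175.5 and 274.3 in the control pools. Control replicates 2, 3 and 5 lay within the dehydrated range, and the difference was 0.19 ± 0.11 (limma adjusted p = 0.477).

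Tfrc encodes the transferrin receptor, by which brain endothelium takes up iron. Its signals were 440.2, 446.4, 507.7, 526.4 and 486.9 in the dehydrated and 416.3, 465.2, 451.1, 445.6 and 440.5 in the control pools. Dehydrated replicates 3, 4 and 5 lay above all controls and replicates 1 and 2 did not, and the log2 difference was 0.11 ± 0.07 (limma adjusted p = 0.478). Slc2a1 encodes the glucose transporter of the barrier. Its signals were 337.1, 358.9, 343.7, 294.8 and 372.1 in the dehydrated and 317.5, 350.9, 327.5, 281.8 and 399 in the control pools. The highest and the lowest pool were both controls, and the difference was 0.03 ± 0.09 with a 95% interval from -0.16 to 0.22 (limma adjusted p = 0.916). All 7 transporters had a positive difference, with a median of 0.28, and 1 of the 7 passed. Of all probe sets tested, 48.8% had a positive difference and 0.580% passed in either direction.

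**Figure D2:**
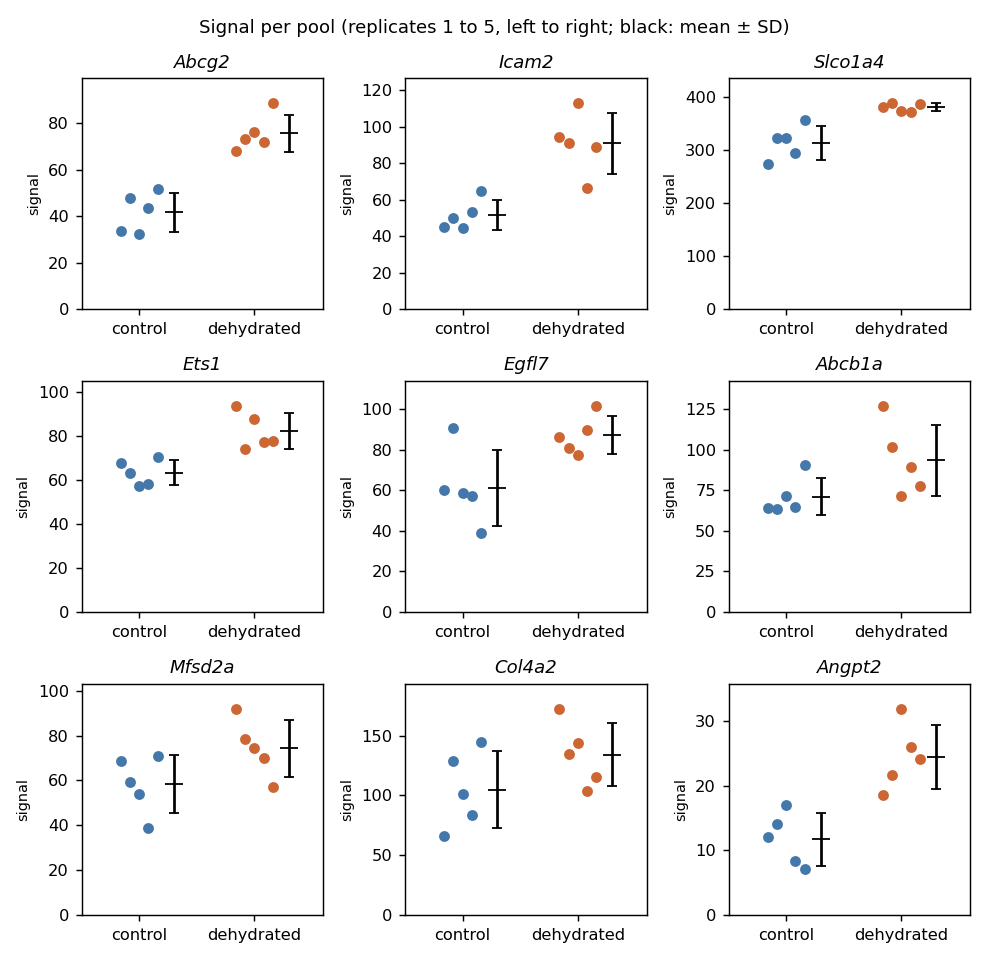
Signal of 9 vessel genes in each pool, with control pools in blue and dehydrated pools in orange, replicates in order from left to right, and the mean ± SD in black. Dehydrated points lie wholly above control points for Abcg2, Icam2, Slco1a4, Ets1 and Angpt2, and the groups overlap for the other 4.

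Adhesion and junction genes differed among themselves. Icam2 encodes an adhesion molecule that endothelial cells carry at rest and that leukocyte integrins bind. Its signals were 94.4, 91.2, 112.8, 66.6 and 88.7 in the dehydrated and 44.8, 50.1, 44.4, 53.3 and 64.7 in the control pools. The lowest dehydrated pool, replicate 4, lay 1.9 units above the highest control, replicate 5. The log2 difference was 0.77 ± 0.14, or 1.70-fold (95% interval 0.48 to 1.06, limma adjusted p = 0.0150). Icam2 passed in 19 of its 20 alternatives and missed the threshold without dehydrated replicate 3, its highest pool (adjusted p = 0.0548). The adjusted p over these 20 ran from 0.0042 to 0.0548.

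A second probe set of Icam2 had signals of 46.3, 32.6, 54.4, 41.9 and 43.0 in dehydrated replicates 1 to 5 and of 28.9, 30.6, 27.4, 24.7 and 33.5 in the controls. Replicate 3 was again the highest, dehydrated replicate 2 lay under control replicate 5, and the difference of 0.52 ± 0.15 did not pass (limma adjusted p = 0.135).

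Pecam1, the adhesion molecule CD31 that marks all endothelium, did not share this pattern. Its signals were 63.9, 22.3, 29.6, 31.6 and 28.8 in the dehydrated and 30.7, 40.8, 34.4, 29.7 and 39.8 in the control pools. Dehydrated replicate 1 was above the next of all pools by 23.1 units, and the other 4 dehydrated pools lay within or below the control range. The log2 difference was -0.07 ± 0.21 (limma adjusted p = 0.923) and turned from negative to positive in some alternatives, between -0.29 and 0.06. Cldn5 encodes claudin 5, the main sealing protein of the tight junction. Its signals were 365, 336.4, 384, 354.2 and 331 in the dehydrated and 283.3, 306.7, 301.6, 267.3 and 432.6 in the control pools. Control replicate 5 was the highest of all pools, and the other 4 controls lay below every dehydrated pool. The difference was 0.17 ± 0.10 with all 10 pools (limma adjusted p = 0.512), and 0.29 without that control (adjusted p = 0.0609). Without control replicate 4 the limma adjusted p was 0.711, and Cldn5 passed in 0 of 20 alternatives. The tested junction genes Esam, Ocln and Tjp1 differed by 0.25, 0.09 and -0.07, with overlap in each, and Icam1, the adhesion molecule induced by cytokines, had mean signals of 19.8 and 20.9 and was not tested.

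Receptors of the vascular growth factors did not pass. Kdr encodes the main signalling receptor for VEGF, and its signals were 71.8, 66.6, 70.7, 75.4 and 56.4 in the dehydrated and 51.5, 57.4, 68.8, 72 and 45.5 in the control pools. Flt1, a VEGF receptor that acts largely as a trap, had signals of 64.5, 70.3, 88.3, 64.8 and 51.9 in the dehydrated and 64.8, 53.3, 71.5, 41.5 and 60.2 in the control pools. Both overlapped widely between groups, at 0.21 ± 0.13 for Kdr (limma adjusted p = 0.528) and 0.21 ± 0.15 for Flt1 (limma adjusted p = 0.585). Tek encodes Tie2, the receptor of the angiopoietins. Its signals were 120.7, 135.5, 116, 117.7 and 118 in the dehydrated and 123.1, 124.3, 108.6, 107.2 and 113.9 in the control pools. Dehydrated replicate 2 was the highest pool, and the difference was 0.07 ± 0.08 (limma adjusted p = 0.76). Eng, a co-receptor for TGF-beta, was at 0.21, the Tie2 partner Tie1 at -0.08 and the phosphatase Ptprb, which acts on Tie2, at -0.10. Of the 6 tested receptors 0 passed in limma and 0 had an unadjusted p under 0.05, against 12.7% of all probe sets tested.

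Among the ligands, Angpt2 encodes angiopoietin 2, which endothelial cells store and which opposes angiopoietin 1 at Tie2. It is described here after its values were seen. Its signals were 18.5, 21.7, 31.9, 26 and 24.2 in the dehydrated and 12.1, 14.1, 17, 8.3 and 7.1 in the control pools. All 5 dehydrated pools lay above all 5 controls, at means of 24.5 ± 5.02 and 11.7 ± 4.08 (SD, n = 5 each). The gene was not tested, since its mean of 18.1 was under the limit. With no limit on the mean signal its log2 difference was 0.89 ± 0.23 and did not pass (limma adjusted p = 0.157). Angpt1, the ligand that activates Tie2, had mean signals of 2.20 and 0.84 and was not tested either.

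Egfl7 encodes a secreted protein of endothelial cells. Its signals were 86.2, 80.7, 77.4, 89.7 and 101.6 in the dehydrated and 60.3, 90.9, 58.5, 57.4 and 39 in the control pools. Control replicate 2 lay among the dehydrated pools and the other 4 controls below them, and the difference was 0.52 ± 0.16 (limma adjusted p = 0.173). A second probe set of Egfl7 went the other way, at -0.19 ± 0.14 (limma adjusted p = 0.585). Vegfa, the ligand of Kdr and Flt1, had signals of 249.7, 235.9, 206.4, 177.8 and 194.1 in the dehydrated and 183.7, 213.7, 187, 185.9 and 235.6 in the control pools. The pools were mixed, and the difference was 0.08 ± 0.10 (limma adjusted p = 0.794). Edn1, which encodes the vasoconstrictor endothelin 1, had signals of 40.7, 28.6, 37.6, 37.4 and 28 in the dehydrated and 23.7, 31.3, 26.3, 25.4 and 38.4 in the control pools. Its highest control was replicate 5, and the difference was 0.23 ± 0.16 (limma adjusted p = 0.587).

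Of the transcription factors, Ets1, which binds the GGAA motif common to endothelial enhancers, had groups that did not overlap. Its signals were 93.6, 74.2, 87.5, 77.4 and 77.8 in the dehydrated and 67.6, 63.1, 57.4, 58.1 and 70.4 in the control pools. The lowest dehydrated pool was 3.8 units above the highest control. The difference was 0.36 ± 0.10 and did not pass (limma adjusted p = 0.152), and it passed in 0 of 20 alternatives, with adjusted p from 0.0795 to 0.296. The flow-responsive factors Klf2 and Klf4 were at -0.04 and 0.02, and Sox17 and Sox18, which specify arterial and other endothelium, at -0.10 and -0.03. Klf4 ranged more widely in controls (SD 18.1) than in dehydrated pools (SD 3.90).

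Vwf encodes von Willebrand factor, stored by endothelial cells for clotting. Its signals were 88.1, 68.8, 94.5, 59.2 and 70.1 in the dehydrated and 79.9, 65.6, 64.5, 55.4 and 81.1 in the control pools. The groups overlapped throughout, at 0.12 ± 0.14 (limma adjusted p = 0.754). Emcn, a sialomucin of capillaries and veins, and Cav1, the coat protein of caveolae, both differed by -0.07. Nos3, the endothelial nitric oxide synthase, had signals of 23.8, 21.4, 22.4, 28.3 and 18.4 in the dehydrated and 12.9, 17.7, 14.8, 13.8 and 24.6 in the control pools. Control replicate 5 exceeded 4 of the 5 dehydrated pools, and the gene was under the limit for a test (0.39 ± 0.20 without the limit, limma adjusted p = 0.517).

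Mural cell genes did not pass. Pdgfrb encodes the receptor that keeps pericytes on capillaries. Its signals were 37.4, 16.5, 31, 38 and 26.3 in the dehydrated and 17.8, 17.8, 27.2, 25 and 23.8 in the control pools. The lowest pool was a dehydrated one, replicate 2, as were the 3 highest. The difference was 0.34 ± 0.21 (limma adjusted p = 0.518), and the control mean of 22.3 lay under the limit for a test. Rgs5, a regulator of G protein signalling abundant in pericytes, had signals of 122.4, 76.2, 115.3, 85 and 77.5 in the dehydrated and 91.1, 87, 81.9, 62 and 76.9 in the control pools. Dehydrated replicates 1 and 3 were the highest, and the difference was 0.23 ± 0.14 (limma adjusted p = 0.52).

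Smooth muscle actin, Acta2, had signals of 46.8, 36.9, 41.3, 49.1 and 34.3 in the dehydrated and 53.6, 43.7, 49.2, 34.7 and 38.1 in the control pools. The groups overlapped, at -0.06 ± 0.15 (limma adjusted p = 0.889), and 5 probe sets annotated with Acta2 and other genes were not used. Smooth muscle myosin, Myh11, had signals of 55.7, 56.5, 56.6, 53.8 and 55.7 in the dehydrated and 49.2, 52.4, 55.8, 52 and 43.5 in the control pools. The dehydrated pools lay in a narrow range, with control replicate 3 inside it and the other 4 controls below it, at 0.13 ± 0.11 (limma adjusted p = 0.631). Tagln, an actin-binding protein of smooth muscle, had signals of 13.8, 12.3, 6.6, 1.7 and 8.8 in the dehydrated and 2.6, 3.2, 22.5, 7.1 and 20.5 in the control pools and was too dim for a test.

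None of the 3 basement membrane genes passed in limma, and 1 had an unadjusted p under 0.05, against 12.7% of all probe sets tested. Col4a1 and Col4a2 encode the chains of the common form of type IV collagen. Col4a1 signals were 94.2, 81.8, 83.4, 81.8 and 86.3 in the dehydrated and 56.9, 61.6, 85.2, 59.9 and 108.2 in the control pools. Control replicate 5 was the highest of all pools. The difference was 0.23 ± 0.15 (limma adjusted p = 0.532). Col4a2 signals were 172.2, 134.7, 143.9, 104 and 115.1 in the dehydrated and 65.9, 128.6, 100.8, 83.9 and 144.2 in the control pools. Control replicate 1 was the lowest and dehydrated replicate 1 the highest. The difference was 0.38 ± 0.18 (limma adjusted p = 0.393), and the laminin chain gene Lama4 was at 0.23 ± 0.14. Without control replicate 5, Col4a1 and Col4a2 differed by 0.37 and 0.50 (adjusted p = 0.159 and adjusted p = 0.177). Without control replicate 1 their limma adjusted p was 0.733 and 0.610, and each passed in 0 of 20 alternatives.

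**Figure D3:**
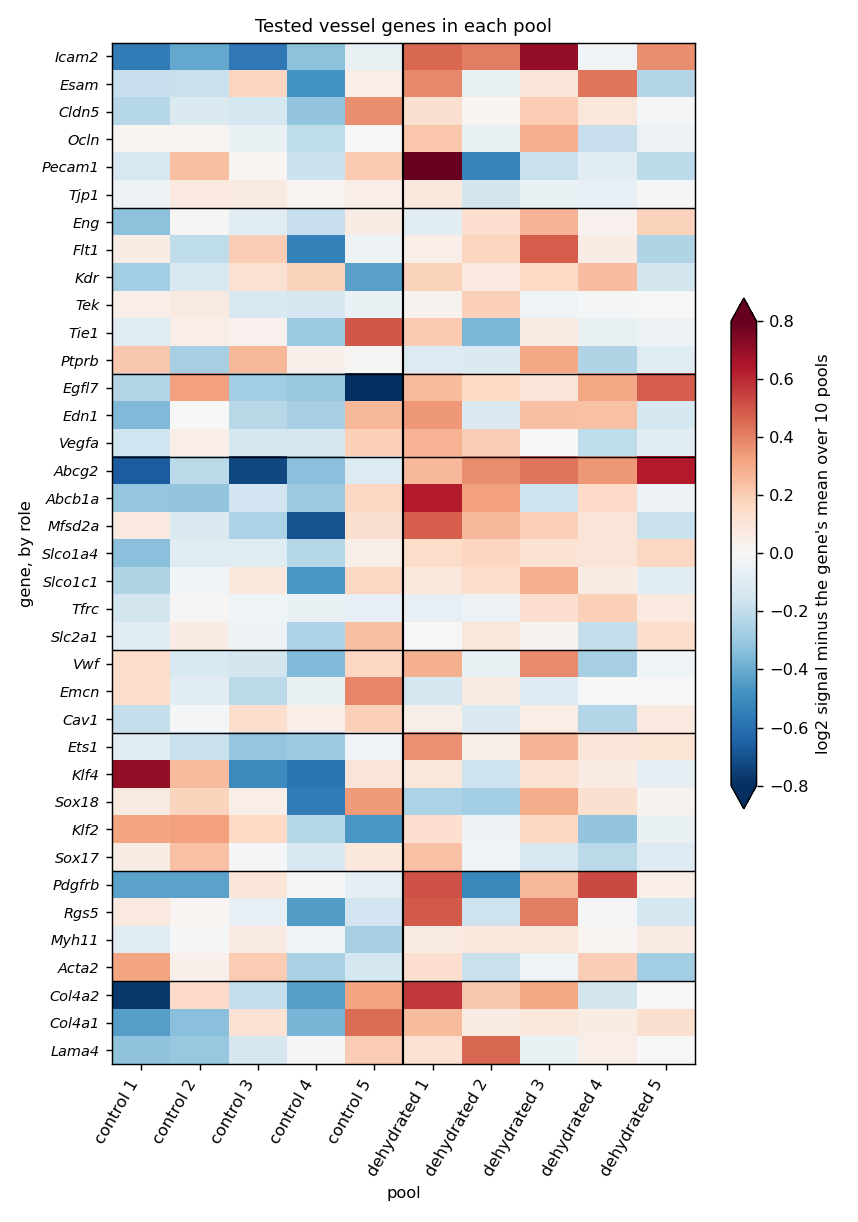
Log2 signal of each tested gene in each pool minus the gene's mean over the 10 pools, ordered by role, with controls left and dehydrated pools right of the line. Abcg2 and Ets1 change from blue to red at the line, while control replicate 4 is blue and dehydrated replicate 1 red for most genes.

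The vessel genes varied between pools of one group as well as between groups. Control replicate 4 was below the 10-pool mean for 33 of the 37 tested genes, with the lowest value of all pools for 12. Dehydrated replicate 1 was above that mean for 32 of 37 and had the highest value for 9. Control replicate 5 was above it for 23 of 37, and dehydrated replicate 5 for 13. The mean deviation of all 37 genes was -0.25 in control replicate 4 and 0.21 in dehydrated replicate 1, and the other pools lay from -0.12 to 0.16. Leaving out control replicate 4 moved the median difference of the tested genes from 0.17 to 0.11, and leaving out dehydrated replicate 3 moved it to 0.13.

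Over the 10 pools, Cldn5 and Slco1c1 were correlated by rank (Spearman rho = 0.85, permutation p = 0.0030, adjusted p = 0.0486 over 16 pairs). Their Pearson correlation did not pass after adjustment (r = 0.81, permutation p = 0.0040, adjusted p = 0.0642). The Pearson r was 0.76 in the deviations from each group's mean. It was 0.77 without control replicates 4 and 5, the pools with the most extreme Cldn5. The other 5 pairs among Cldn5, Slco1a4, Slco1c1 and Slc2a1 had r from 0.49 to 0.73 (adjusted permutation p from 0.105 to 0.336). In the deviations from each group's mean, r of these 5 pairs ran from 0.61 to 0.74. Slc2a1 no longer followed Cldn5 without those controls (r = 0.07), so that relation rested on them, whereas Cldn5 and Slco1a4 gave r = 0.84 without them. Without control replicates 1 and 4, Slco1a4 and Slco1c1 gave r = 0.16. With the same pools left out, r with Slc2a1 was 0.09 for Slco1a4 and 0.04 for Slco1c1. The mural genes Acta2, Tagln, Myh11, Rgs5 and Pdgfrb gave 10 pairs with r from -0.29 to 0.52 (Acta2 with Rgs5), and the lowest adjusted permutation p was 0.336.

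**Figure D4:**
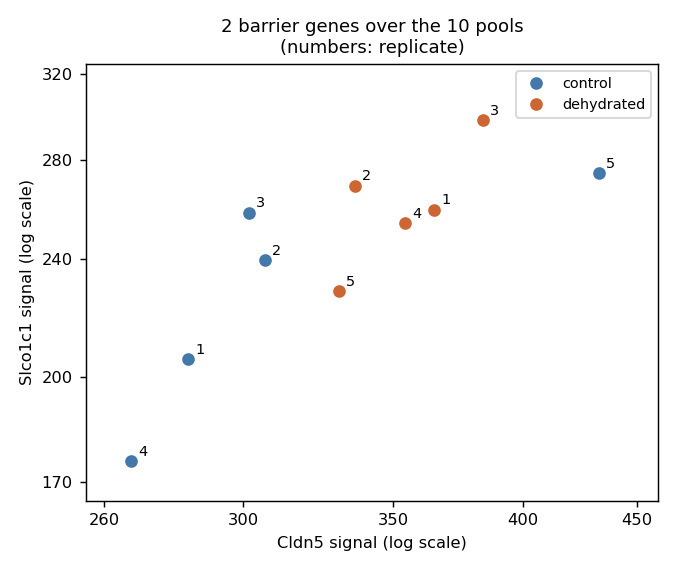
Signal of Slco1c1 against that of Cldn5 in the 10 pools, both on log axes, with the replicate number beside each point. Control replicate 4 is lowest for both genes, and control replicate 5 has the highest Cldn5.

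Other genes of the same pathways gave few calls. Of 23 further barrier transporters and enzymes on the array 21 were tested, 1 rose, 0 fell and 20 did not pass, with a median of 0.02. Of all probe sets tested, 0.397% rose and 0.183% fell. The gene that rose was Slc7a1, a carrier of cationic amino acids, which is not limited to endothelium. Its signals were 482.1, 401.6, 418.2, 381 and 388.2 in the dehydrated and 310.9, 284.9, 310.0, 292.4 and 333 in the control pools, with no overlap, and the log2 difference was 0.43 ± 0.07 (limma adjusted p = 0.0120). Slc7a1 did not pass without the variance trend (adjusted p = 0.0717). At an unadjusted p under 0.05 there were 5 of the 21, each higher, against 6.70% of all probe sets tested, the other 4 being Car4, Slc3a2, Slc40a1 and Slc7a5, with differences of 0.30, 0.16, 0.33 and 0.27.

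Of 21 other tested angiogenic signalling genes 0 passed in limma, and 8 had an unadjusted p under 0.05, 3 higher and 5 lower, against 12.7% of all probe sets in either direction. The placental growth factor gene Pgf, a ligand of Flt1, was 0.49 ± 0.12 higher with no overlap (limma adjusted p = 0.0928). Angptl4, an inhibitor of lipoprotein lipase, was 0.51 ± 0.13 higher (limma adjusted p = 0.0845, and adjusted p = 0.0178 without control replicate 5). Angptl4 passed in 2 of 20 alternatives, and the limma adjusted p reached 0.213 without dehydrated replicate 3. Bmp4 was at -0.59 ± 0.13 with every dehydrated pool below every control (limma adjusted p = 0.0502), and passed in 7 of 19 alternatives. Of 16 Wnt and lineage genes of brain endothelium 0 passed in limma. An unadjusted p under 0.05 was found for 2 (12.5%, near the 12.7% of all probe sets tested), the ETS factor Erg (0.55, limma adjusted p = 0.325) and Tspan12 (0.19). Of 12 other junction genes 0 passed, with F11r (0.27) alone at an unadjusted p under 0.05 (8.33%, against the same 12.7%). The median was -0.09 for the angiogenic genes, 0.04 for the Wnt genes and -0.08 for the junction genes.

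Of 17 hypoxia responsive genes the lactate dehydrogenase gene Ldha rose and 16 did not pass, with a median of 0.01. Ldha signals were 939.5, 952.7, 966.2, 986.9 and 896.4 in the dehydrated and 792.4, 750.0, 781.7, 856.6 and 749.2 in the control pools. The groups did not overlap, and the difference was 0.27 ± 0.06 (limma adjusted p = 0.0353). The call ended in 10 of 20 alternatives, with adjusted p up to 0.155. Pfkfb3, another gene of glycolysis, was at -0.40 (limma adjusted p = 0.101). Among 9 vasoactive genes 0 passed in limma and 4 had an unadjusted p under 0.05, 2 higher and 2 lower, against 6.70% and 6.01% of all probe sets tested. The smallest p was that of Agtr1a, the angiotensin II type 1a receptor gene, at 0.56 ± 0.14 (limma adjusted p = 0.0906). It passed without control replicate 5 (adjusted p = 0.0297) and with array weights (adjusted p = 0.0291). In the other 18 of 20 alternatives Agtr1a did not pass, with limma adjusted p up to 0.226. Another of the 4 was Ace, which encodes the angiotensin-converting enzyme of endothelium, with dehydrated pools above all controls at 0.44 ± 0.13 (limma adjusted p = 0.157). Of 16 other mural and 20 other matrix genes 0 passed in limma. An unadjusted p under 0.05 was found for 1 and 3 of them (6.25% and 15%, against 12.7% of all probe sets tested). The channel subunit gene Abcc9, found in pericytes and smooth muscle, was in both the vasoactive and the mural list. It was counted in each at an unadjusted p under 0.05. Abcc9 was at -0.46 ± 0.12 with every dehydrated pool below every control (limma adjusted p = 0.107).

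**Figure D5:**
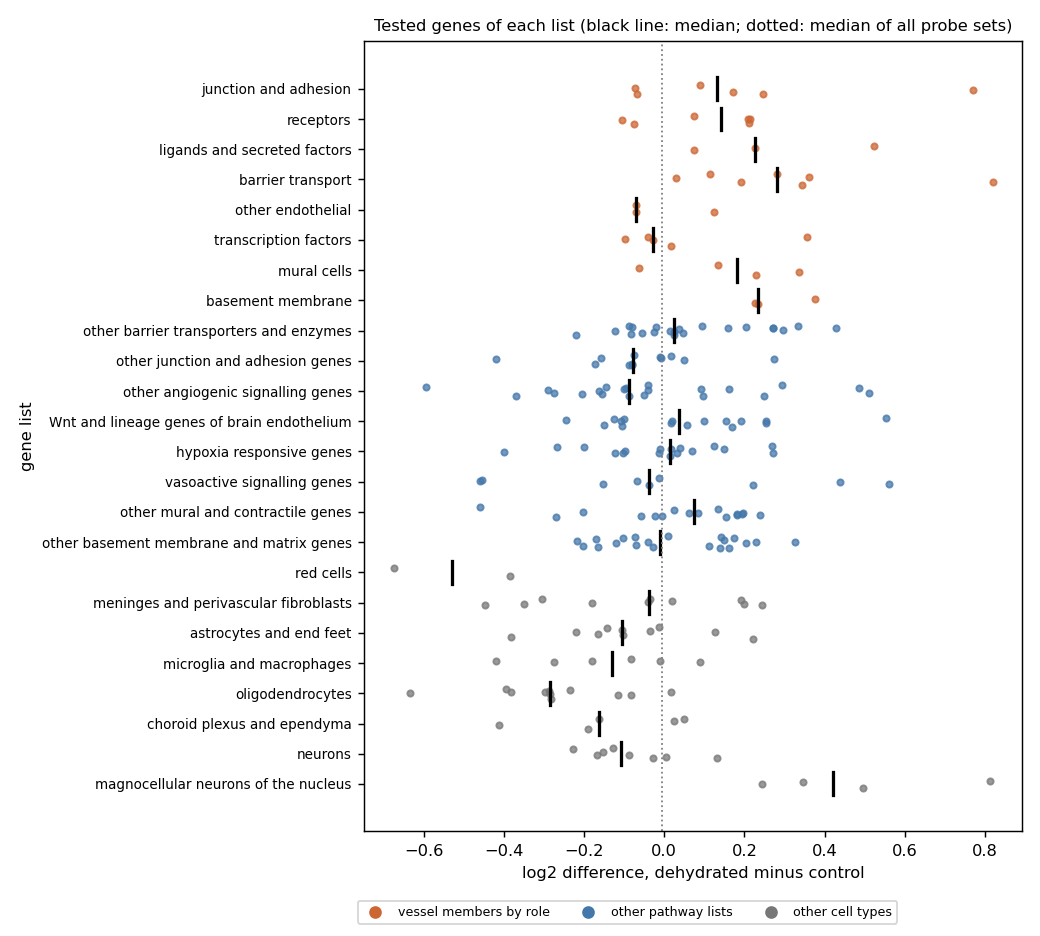
Log2 difference of each tested gene, dehydrated minus control, by gene list, with a black line at the list's median and a dotted line at the median of all probe sets. Vessel genes are orange, other pathway genes blue and genes of other cells grey, and the medians run from 0.28 for barrier transport to -0.28 for oligodendrocytes, apart from red cells (-0.53, 2 genes) and magnocellular neurons (0.42, 4 genes).

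Genes of other cells moved beside the vessel genes, and their part in the vessel differences was not tested. Hbb, the beta-globin gene of red cells, fell by 0.67 ± 0.13 on the log2 scale (limma adjusted p = 0.0305), and the call ended in 8 of 20 alternatives. The summed signal of 3 red cell genes ran from 314 to 595 in dehydrated and from 584 to 786 in control pools. Of 11 oligodendrocyte genes Ermn fell, by 0.63 ± 0.12 (limma adjusted p = 0.0255), where 0.183% of all probe sets tested fell. The call ended in 5 of 20 alternatives, and the other 10 genes did not pass. At an unadjusted p under 0.05 there were 8 of the 11, all lower, against 6.01% of all probe sets tested. Of the 11, 3 had dehydrated pools wholly below the controls, against 1.42% of all probe sets tested. The summed signals of the 11 ran from 6946 to 7196 in dehydrated and from 7458 to 8998 in control pools, with no overlap. Genes of astrocytes (10 tested), microglia (6), meninges (10) and choroid plexus or ependyma (5) gave 0 calls in limma, with 4, 1, 3 and 0 at an unadjusted p under 0.05, against 12.7% of all probe sets tested. Of the 4 astrocyte genes 1 was higher and 3 lower, and the microglial gene and the 3 meningeal genes were lower. The microglial gene was Aif1, at -0.42 ± 0.11 (limma adjusted p = 0.0880), which passed in 3 of 20 alternatives, among them that without control replicate 5 (adjusted p = 0.0250). Of 8 neuronal genes 0 passed and 1 (12.5%) had an unadjusted p under 0.05, against 12.7% of all probe sets tested. Of 4 tested genes of magnocellular neurons Pdyn, which encodes the dynorphin precursor, rose by 0.81 ± 0.10 (limma adjusted p = 5.7e-04), where 0.397% of all probe sets tested rose. Avp, the vasopressin gene, was at 0.50 ± 0.11 (limma adjusted p = 0.0504) and passed in 6 of 20 alternatives, among them that without control replicate 5 (adjusted p = 0.0132). The summed signals of the astrocyte, microglial, meningeal and choroid lists overlapped between the groups, at 9328 to 10563 in dehydrated and 10185 to 11350 in control pools for astrocytes, 808 to 915 and 878 to 1014 for microglia, 590 to 733 and 663 to 784 for meninges and 419 to 633 and 512 to 677 for choroid plexus. No marker was at 0 in any pool. Summed signals of the 7 barrier transporters ran from 1677 to 1745 in dehydrated and from 1343 to 1682 in control pools, where control replicate 5 was the highest control.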

How the data were processed

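Total RNA of 10 pools was measured on 10 arrays, 5 per group. The deposited intensities are linear signals, 1 for each probe set on each array. GCOS 1.2 is the software that the submitters' processing notes name. After trimming 2% at each end, the mean was 100 on each array. The signal algorithm and background step are not given in the sources used here. Precision is limited by the number of arrays.

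Groups came from the source names in the labels. Replicate numbers follow accession order and pair nothing. Per the series' text the pools came from separate animals, so the spread between them holds animal and array variation. Values were used as log2(signal + 3.72), a pseudocount of 0.1 of the median array median, without further scaling, so folds of dim genes are understated. Of 31099 probe sets, 57 were controls. Those with a mean signal at or above the 40th percentile (18629) were compared by two-sided limma (version 3.58.1, lmFit and eBayes with a trend, under R 4.3.3). Adjustment was by Benjamini-Hochberg over all of them, and every adjusted p without another name is from it. Errors are SD of signals and standard errors of log2 differences. Of the probe sets, 20826 had 1 symbol in the platform annotation, 436 several and 9780 none listed, and updating symbols changed no member's probe set. In 5 simulated sets of these 18629 probe sets, 34.2% of true log2 differences of 0.4 were recovered, 80.8% of 0.8 and 99.2% of 1.6. The simulated noise was independent between probe sets and held no array effects, unlike the data, so these shares may not hold for them. Correlations used 100000 permutations.

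The genes and lists were chosen with earlier results of these data known. Full values are given for genes at an unadjusted p under 0.05 and for 20 named in the design whatever their values. From the other lists, genes past the threshold and some of the 3 with the smallest p are named. The alternatives tried were centring arrays on their medians, quantiles made equal, 3 further pseudocounts, no filter, a 60th percentile filter, no variance trend, robust eBayes, array weights, other probe sets and each array left out. The sequence motifs were chosen after the data were seen.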

Additional observations from a re-analysis of the deposited data

Results flagged for a closer look

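Among 84 groups of 5 pools checked (42 genes in 2 groups), 4 held a pool far from the other 4, where chance gives about 1 in 20. Pecam1 was 63.9 in dehydrated replicate 1, and the next pool of that group was at 31.6. Cldn5 was 432.6 in control replicate 5, against 306.7 in the next control. Tek was 135.5 in dehydrated replicate 2, against 120.7. Ptprb was 141.8 in dehydrated replicate 3, against 106.4. The pools concerned are 4 different ones, and none of these genes passed the test.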

How the results depend on the processing

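The number of probe sets called was 108, and 64 with no filter, 45 without the variance trend and 201 with array weights. With each array left out in turn it lay between 46, for dehydrated replicate 3, and 148, for control replicate 5. The number of vessel genes called was 2, and 1 with the stricter filter, under which Abcg2 was not tested and Icam2 was the call. It was 3 with array weights and without control replicate 5, Slco1a4 being the third, and with each array left out it ran from 1 to 3. The median log2 difference of the tested genes ran from 0.0966 (pseudocount 64) to 0.19 over all settings, and from 0.11 to 0.19 with each array left out. Taking every probe set of a gene left 2 calls. Of 9 other probe sets tested, 5 had the sign of the one used and 4, those of Ptprb, Egfl7, Abcb1a and Klf2, the opposite sign, none past the threshold. Median centring moved the median of all probe sets to -0.02. No paired analysis was possible because the replicate numbers follow accession order and the labels pair no pools. Dim signals near background limit Angpt1, Angpt2, Icam1, Nos3 and Tagln.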
